A study of Rattus norvegicus with 12 samples.

Results

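The genes described here encode neuropeptide precursors and other cargo of dense-core vesicles, the secretory granules from which neurons release peptides. They are Penk, Pdyn, Tac1, Adcyap1, Cartpt, Nts, Vgf, Scg2, Pcsk1 and Chgb, 10 of the 17494 genes in the deposited table. They were selected by symbol from a list of names, which was drawn up with earlier results of these data known. All 10 were listed in the table and all 10 passed the filter on low counts.

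Each value comes from 1 library of brain RNA from 1 rat, with 6 rats per group. All were wild-type male Long Evans rats that had received 3 low-level blast exposures under isoflurane, once per day, at 10 weeks of age. The blast-control rats then ate chow alone. The blast-boldine rats ate chow with boldine, an alkaloid of the boldo tree, from week 2 after blast until sacrifice, at an intake aimed at 25 mg/kg/day. All were sacrificed 29 weeks after blast, following behavioral testing. No library of a rat without blast exposure was analysed here, so the comparison is of boldine against no boldine after blast. The tissue is given as brain in the labels and as hippocampus by the study. Of the marker lists for hippocampal neurons used here (dentate granule, CA1, and CA2 and CA3), no gene in the table was at 0 in every one of the 11 deeper libraries. CA1 markers summed to between 569 and 987 CPM (counts scaled to the library total) in these libraries. No gene of the striatal, thalamic and habenular, cortical and choroid plexus lists was at 0 in every one of them either, so these values do not tell brain regions apart. The choroid plexus markers summed to between 9.46 and 1304 CPM in the same libraries.

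A neuropeptide is made as a long precursor, packed into a dense-core vesicle as the vesicle forms, and cut inside it by proprotein convertases such as the product of Pcsk1. Granins, among them the products of Chgb, Scg2 and Vgf, are acidic proteins that aggregate in the forming vesicle and are themselves cut into peptides. Dense-core vesicles are released with sustained firing, and several of these genes are transcribed in response to neuronal activity, in part through the cAMP response element (CRE), the DNA motif bound by CREB. In the hippocampus Pdyn and Penk are known from granule cells and interneurons, and Adcyap1 encodes PACAP, a peptide that raises cAMP in its target cells.

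The CRE is shown because it is the regulatory letter string shared by several of these genes. RefSeq promoter sequence (250 bases before to 50 after the start, build GRCr8) was at hand for 8 of the 10 genes, all but Penk and Pcsk1. The palindrome TGACGTCA, which reads alike on both strands, was present in 3 of the 8, against 1.83% of 33469 promoters of that length. The 80 bases around it, on the minus strand of the genome as are all of these 3 genes, are given 5′ to 3′ with the palindrome in capitals.

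Cartpt, chr2:32991334-32991413: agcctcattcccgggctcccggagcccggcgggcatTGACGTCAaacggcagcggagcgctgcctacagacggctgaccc

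Vgf, chr12:25277067-25277146: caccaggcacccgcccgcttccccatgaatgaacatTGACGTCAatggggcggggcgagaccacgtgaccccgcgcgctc

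Scg2, chr9:88256946-88257025: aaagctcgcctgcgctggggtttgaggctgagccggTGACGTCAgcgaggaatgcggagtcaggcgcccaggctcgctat

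The palindrome began at -142 from the annotated start in Cartpt, -90 in Vgf and -123 in Scg2. The shorter core TGACG, on either strand and counted also where it lies inside the palindrome, was present in 5 of the 8 windows (these 3, Tac1 and Nts) and in 21.2% of all windows. The AP-1 letters TGANTCA were present in the window of Nts, against 7.33% of all windows. The letters TATAAA were present in those of Pdyn, Adcyap1 and Vgf, against 14.2%. A match describes the letters in the window and not binding of a factor.

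Depth set limits that touch these genes. Counts on genes summed to between 10148474 and 40850106 in 11 rats and to 74008 in blast-control rat 6. In the 11 rats the smallest count of any of the 10 genes was 13, and a floor for detection of 3 counts was at most 0.307 CPM. In rat 6 the same 3 counts were 47.5 CPM, so that values there of Tac1, Adcyap1 and Cartpt (0 counts each), Penk and Pdyn (1 count each) lay under the floor. The other 5 genes were also sparse in rat 6, with 8 counts of Nts, 8 of Vgf, 39 of Scg2 and 3 of Pcsk1, except Chgb with 293. Every comparison is therefore given with rat 6 and without it. Floors and intervals on counts cover counting error only.

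The libraries also fell into a pair of sets that the treatment does not explain. The first principal component held 66.0% of the variance over 12529 genes in the 11 deeper libraries. The rats were divided into sets of 6 so that each library suffix occurred once per set. Rat numbers were also assumed to rise with the suffix within each treatment of a set, which left 4 ways. Of these ways, 1 (rats 1, 7, 9, 20, 32 and 35 against the others) accounted for 95.1% of that component, while treatment accounted for 1.53%. Its sets are called the rat 1 set and the rat 4 set below. Each holds 3 rats of each treatment, rat 6 belonging to the rat 4 set. The division was chosen from the expression data, so differences between the sets are described without a test.

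The vesicle cargo genes spanned a wide range of levels. Per kilobase of exon, so that genes can be set side by side, Chgb had the highest median over the 11 rats, 257 CPM per kilobase with a range of 167 to 680. Scg2 followed at 178 (136 to 238), and the ranges of these granin genes overlapped. A gap separated them from the next 4 genes, Nts at 35.7 (21.2 to 72.0), Pdyn at 25.9 (16.6 to 37.7), Penk at 22.9 (17.7 to 42.9) and Vgf at 21.6 (18.9 to 33.7), whose ranges overlapped one another. Pcsk1 had a median of 11.2 CPM per kilobase (8.41 to 15.5), under every value of Vgf. Adcyap1 at 5.02 (2.13 to 8.73), Cartpt at 4.80 (2.0 to 6.98) and Tac1 at 2.84 (1.25 to 3.71) were lowest, with overlapping ranges. The largest value of Adcyap1 reached into the range of Pcsk1, and no value of Cartpt or Tac1 did.

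**Figure D1:**
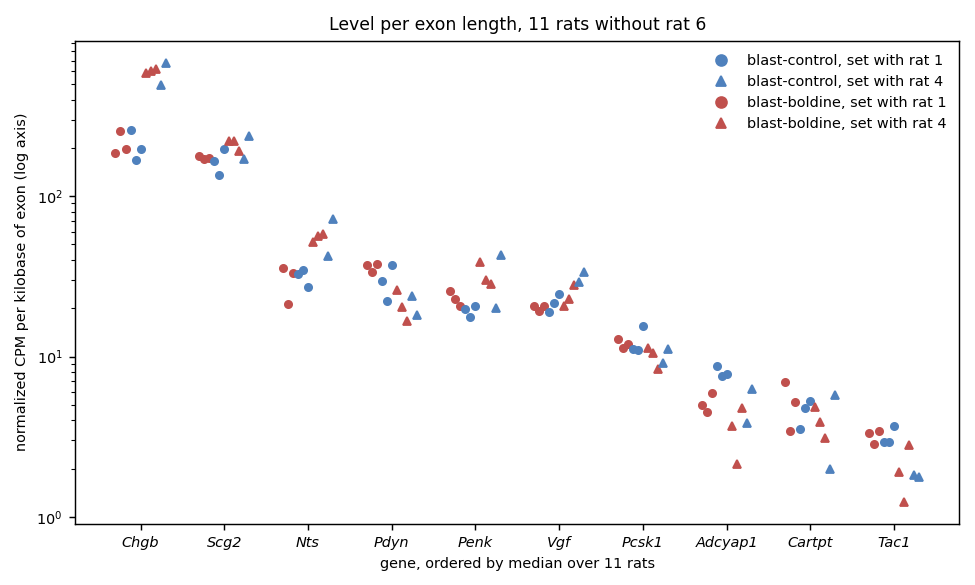
Level of each gene per exon length (normalized CPM per kilobase, log axis) in the 11 rats other than rat 6, 1 point per rat, colored by treatment and shaped by library set. Chgb and Scg2 lie above every value of the other genes, and in Chgb the triangles of the rat 4 set lie above all circles of the rat 1 set.

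No member of the group differed between treatments after adjustment. In edgeR's quasi-likelihood test on the 12325 genes that passed the filter, 0 of the 10 genes and 0% of all genes had an adjusted p under 0.05, with 6 rats per group. At an unadjusted p under 0.05, 1 of the 10 genes passed, Adcyap1, which was lower in blast-boldine rats, against 1.07% of all genes tested (0.519% lower). Without rat 6 it was again Adcyap1 alone, against 1.4% of all genes, and in DESeq2 over 12 rats none of the 10 passed. The median log2 fold change of blast-boldine over blast-control was -0.04 over the 10 genes (4 higher, 6 lower) and 0.00 over all genes. Without rat 6 it was 0.06 (6 higher, 4 lower), again with 0.00 over all genes. For none of the 10 did the treatment groups fail to overlap, with or without rat 6, and such separation was seen in 0.0811% of all genes over 12 rats and 0.146% over 11. As these are bulk samples, fewer cells of a type and less RNA per cell cannot be told apart for any gene here.

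**Figure D2:**
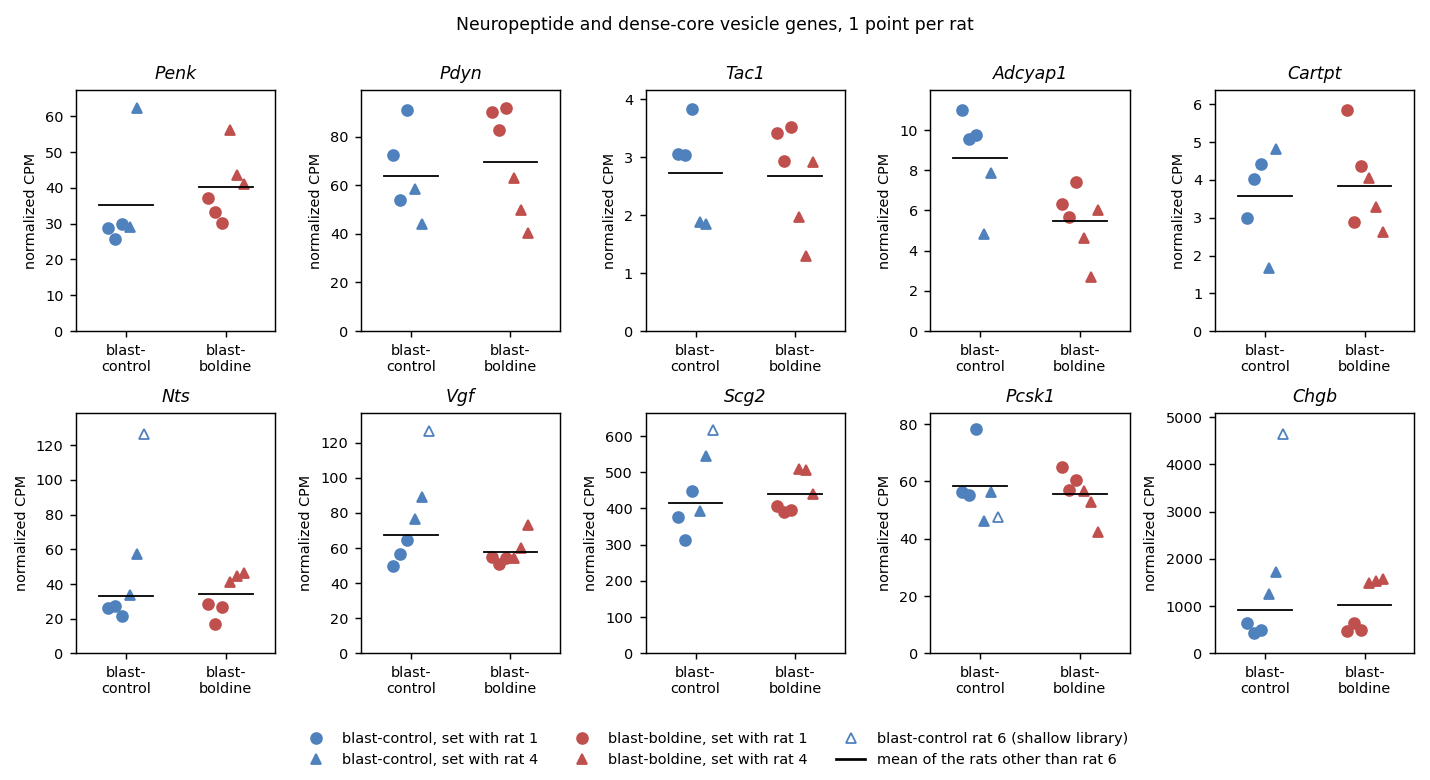
Normalized CPM of each gene (vertical axis) by treatment, 1 point per rat, with circles for the rat 1 set, triangles for the rat 4 set and a line at the mean of the rats other than rat 6. The open triangle is rat 6, drawn only for genes with 3 or more counts there; Adcyap1 shows all 6 blast-boldine rats at or under 7.41 CPM with 4 of the 5 deeper blast-controls above that.

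Adcyap1, the precursor of PACAP, had the largest log2 fold change of the group in edgeR, with or without rat 6. Its position in mRatBN7.2, the build of the files, is chromosome 9, 113104666 to 113109863 on the minus strand. In blast-boldine rats its level ran from 2.68 to 7.41 CPM with a median of 5.85. In the 5 deeper blast-controls it ran from 4.84 to 11 CPM with a median of 9.53, and rat 6 had no count. The blast-control median exceeded all 6 blast-boldine values, and 2 of these were under every one of those 5 blast-controls, but the groups overlapped because blast-control rat 4, at 4.84 CPM, was lower than 4 of the blast-boldine rats. The means were 5.45 ± 1.63 CPM (SD, n = 6) and 8.60 ± 2.38 CPM (SD, n = 5).

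The log2 fold change of Adcyap1 over 12 rats was -0.64 (SE 0.27, 95% interval -1.21 to -0.06, adjusted p = 1.0 in edgeR). Its unadjusted p of 0.0320 in edgeR ranked 80 among 12325 genes. Without rat 6 the log2 fold change was -0.66 (SE 0.26, edgeR's unadjusted p = 0.0255), and an exact permutation test of mean log2 CPM over all assignments of the 11 rats gave a difference of -0.66 and p = 0.0433. With rat 6, whose 0 counts are below what its depth can show, the same exact permutation test gave a difference of 0.36 in mean log2 CPM and p = 0.983. The unadjusted p of Adcyap1 was over 0.05 when any one of blast-boldine rats 12 and 17 and blast-control rats 1, 7 and 9 was left out (edgeR, 0.0522 to 0.0944, log2 fold change -0.59, -0.51, -0.53, -0.59 and -0.59 in that order), and in DESeq2 over 12 rats (0.0616).

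Adcyap1 was lower in blast-boldine rats in each library set. In the rat 1 set the blast-boldine values were 5.69 to 7.41 CPM and the blast-control values 9.53 to 11 CPM, which did not overlap. In the rat 4 set they were 2.68 to 6.00 CPM against 4.84 and 7.88 CPM in the 2 deeper blast-controls. The differences in mean log2 CPM were -0.64 and -0.54. In the rat 1 set, 6.9% of all genes had treatment groups that did not overlap, and 2 of the 10 genes did, Adcyap1 and Penk. When rat 6 was left out and the set was a covariate, Adcyap1 had a log2 fold change of -0.59 (SE 0.18, 95% interval -0.99 to -0.20) with an unadjusted p of 0.00659 and an adjusted p of 0.898 in edgeR. In that fit 2 of the 10 genes, Adcyap1 and Vgf, both lower, had an unadjusted p under 0.05, against 5.35% of all genes (3.54% lower). With rat 6 kept and the set as a covariate they were the same 2 genes, against 3.85% of all genes (2.31% lower).

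Markers of hippocampal neurons had no common direction beside Adcyap1. The CA1 pyramidal neuron markers had 4 of 4 genes lower in blast-boldine rats, with a median log2 fold change of -0.24 and none with an unadjusted p under 0.05 over 12 rats in edgeR. Of the CA2 and CA3 markers 4 of 5 were higher (median 0.18), and of the dentate granule markers 2 of 3 (median 0.09). The gene with the smallest p was Wfs1 among the CA1 markers, at -0.35 (SE 0.17 in edgeR). Of the CA2 and CA3 markers it was Amigo2 among those higher, at 0.19 (SE 0.19), and Nptx1 was lower at -0.18 (SE 0.20). For the dentate granule markers these were Calb1 at 0.12 (SE 0.26) and Prox1 at -0.02 (SE 0.30). Without rat 6 the CA1 markers had 4 of 4 lower (median -0.26) and the CA2 and CA3 markers 4 of 5 higher (median 0.05). The dentate granule markers then had 3 of 3 higher (median 0.07). The summed level of the CA1 markers was 569 to 836 CPM in blast-boldine rats and 783 to 987 CPM in the 5 deeper blast-controls, which overlapped. Slc17a6, the vesicular glutamate transporter VGLUT2 and a member of the thalamic and habenular list, averaged 21.6 ± 6.64 CPM in the blast-boldine group (SD, n = 6) and 32.7 ± 9.41 CPM in the deeper blast-controls (SD, n = 5). Its log2 fold change was -0.64 over 12 rats (SE 0.27, unadjusted p = 0.0337, adjusted p = 1.0 in edgeR) and -0.60 without rat 6 (SE 0.27). In that list 2 of 4 genes were lower over 12 rats (median log2 fold change 0.01), and 2 of 4 without rat 6 (median 0.09). With the set as a covariate and without rat 6, 3 of 4 were lower (median -0.08). Among the higher genes of that list over 12 rats, Lef1 had the smallest p, at a log2 fold change of 0.40 (SE 0.78 in edgeR). The summed level of that list overlapped between groups (46.9 to 86.3 against 56.3 to 97.5 CPM). Tbr1, a transcription factor of cortical glutamatergic neurons, averaged 45.8 ± 11.2 CPM with boldine (SD, n = 6) and 60.2 ± 11 CPM without (SD, n = 5). Its list, the cortical layer markers, had 3 higher and 3 lower (median -0.05), and 2 higher and 4 lower without rat 6 (median -0.08). Among the higher genes of this list over 12 rats, Rspo1 had the smallest p, at 0.30 (SE 0.36 in edgeR). The summed levels of this list overlapped between the groups.

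With set means removed, Pearson's r of log2 CPM with Adcyap1 over the 11 rats was 0.79 for Slc17a6, 0.71 for Tbr1 and 0.35 for the CA1 marker Wfs1. It was 0.85 for Crh, the precursor of corticotropin-releasing hormone, which averaged 1.14 ± 0.538 CPM with boldine (SD, n = 6) and 1.91 ± 0.863 CPM without (SD, n = 5). It was -0.49 for Pmch, another peptide precursor. These genes were set beside Adcyap1 after their values were seen, the correlated genes share their libraries and the treatment, and the part of these markers in the level of Adcyap1 was not tested.

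Vgf encodes a granin-like precursor that neurotrophins and activity are known to induce. It lies on chromosome 12 from 19637320 to 19640341, minus strand. Its level was 50.9 to 73.3 CPM with a median of 54.6 in blast-boldine rats, and 49.7 to 88.8 CPM with a median of 64.8 in the 5 deeper blast-controls. Rat 6 was higher than any other rat, at 127 CPM from 8 counts (exact Poisson 95% interval 54.7 to 250 CPM). The groups overlapped widely, with 5 of 6 blast-boldine rats under the blast-control median and none under every blast-control.

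The log2 fold change of Vgf was -0.28 over 12 rats (SE 0.19, 95% interval -0.68 to 0.12, adjusted p = 1.0 in edgeR) and -0.22 without rat 6 (SE 0.16). The exact permutation p was 0.123 over 12 rats and 0.242 without rat 6. Most of the difference lay in the rat 4 set, where the blast-boldine values of 54.4 to 73.3 CPM were under the 76.4 and 88.8 CPM of the deeper blast-controls, a difference of -0.41 in mean log2 CPM. With 3 against 2 rats, 22.4% of all genes did not overlap there, and Vgf was 1 of the 10 genes. In the rat 1 set it was -0.09, with overlapping values. Whether the difference depends on the set was not tested. When rat 6 was left out and the set was a covariate, this value was -0.24 (SE 0.10, 95% interval -0.45 to -0.02), with an unadjusted p of 0.0364 and an adjusted p of 0.898 in edgeR. The exact permutation p within sets was 0.04 over 400 assignments with rat 6 and 0.085 over 200 without it.

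**Figure D3:**
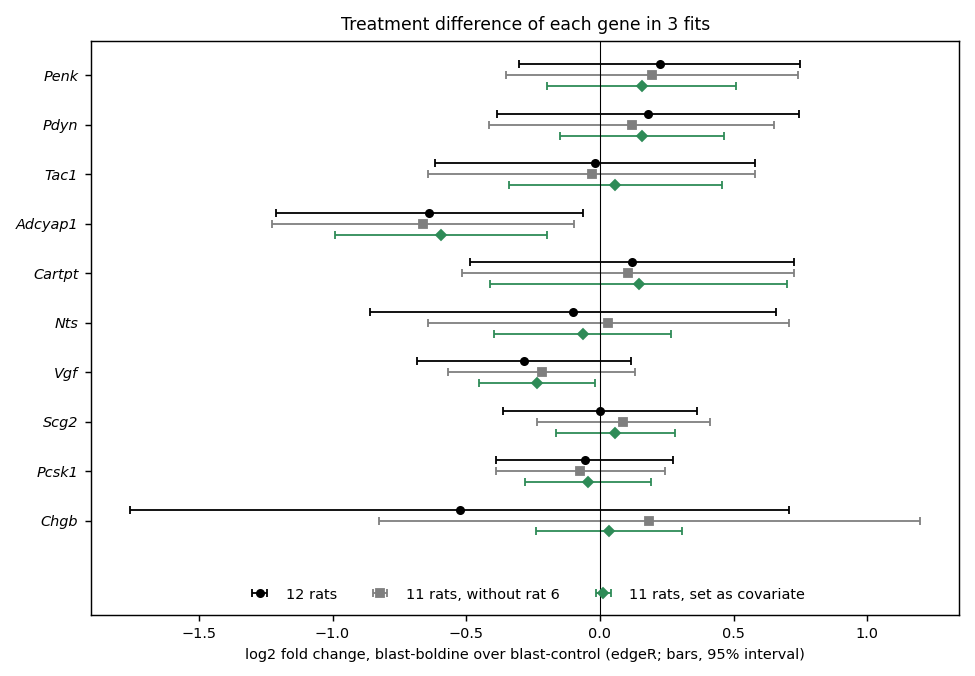
Log2 fold change of blast-boldine over blast-control (horizontal axis, edgeR, bars are 95% intervals) for each gene over 12 rats, without rat 6, and without rat 6 with the library set as a covariate. The interval of Adcyap1 lies under 0 in all 3 fits and that of Vgf in the last one, and the interval of Chgb narrows from -1.76 to 0.71 in the first fit to -0.24 to 0.31 in the last.

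The opioid precursors were higher in blast-boldine rats in these libraries, without passing the test. Penk, the precursor of the enkephalins (chromosome 5, 17183806 to 17188748, minus strand), measured 30.1 to 56.1 CPM with a median of 39.1 in blast-boldine rats. In the 5 deeper blast-controls it measured 25.7 to 62.3 CPM with a median of 29. All 6 blast-boldine rats lay above the blast-control median and above 4 of these 5 blast-controls, and blast-control rat 5, at 62.3 CPM, lay above them all.

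The log2 fold change of Penk was 0.22 (SE 0.24, 95% interval -0.30 to 0.75, adjusted p = 1.0 in edgeR), and 0.19 without rat 6 (SE 0.25). The exact permutation p was 0.173 over 12 rats and 0.338 without rat 6. Single rats moved the value both ways. Without blast-control rat 5 the log2 fold change was 0.53 (SE 0.18, unadjusted p = 0.0114, adjusted p = 1.0 in edgeR), and without blast-boldine rat 12 it was 0.11 (SE 0.25). Within the rat 1 set the blast-boldine values (30.1 to 37.3 CPM) lay above the blast-control values (25.7 to 29.9 CPM), with a difference of 0.25 in mean log2 CPM. In the rat 4 set without rat 6 the difference was 0.13, with overlap.

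Pdyn, the precursor of the dynorphins (chromosome 3, 116900992 to 116913334, minus strand), ran from 40.6 to 91.9 CPM with a median of 72.8 in blast-boldine rats. It ran from 44.0 to 91.0 CPM with a median of 58.4 in the 5 deeper blast-controls, so that the ranges nearly coincided. Its log2 fold change was 0.18 (SE 0.26, 95% interval -0.39 to 0.74) over 12 rats and 0.12 without rat 6, both with an adjusted p of 1.0 in edgeR. The difference in mean log2 CPM was 0.31 in the rat 1 set and -0.01 in the rat 4 set without rat 6, and whether the sets differ in it was not tested. The exact permutation p was 0.357 over 12 rats and 0.710 without rat 6.

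The remaining peptide precursors showed overlapping groups with differences close to 0. Tac1, which encodes substance P and neurokinin A, measured 1.29 to 3.53 CPM with a median of 2.93 in blast-boldine rats and 1.84 to 3.84 CPM with a median of 3.04 in the 5 deeper blast-controls. It had a log2 fold change of -0.02 (SE 0.28, 95% interval -0.62 to 0.58) in edgeR. Cartpt, the precursor of cocaine- and amphetamine-regulated transcript peptides, measured 2.62 to 5.86 CPM with a median of 3.66 against 1.68 to 4.81 CPM with a median of 4.03. For Cartpt the log2 fold change was 0.12 (SE 0.28, 95% interval -0.49 to 0.73) in edgeR, while the blast-boldine median was the lower one. Without rat 6 the values were -0.03 for Tac1 and 0.10 for Cartpt. At about 3 to 4 CPM both genes were counted thinly.

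Nts, the precursor of neurotensin, measured 16.9 to 46.4 CPM with a median of 34.9 in blast-boldine rats and 21.7 to 57.4 CPM with a median of 27.5 in the 5 deeper blast-controls. Rat 6 stood above all others at 127 CPM, from 8 counts. The log2 fold change of Nts was -0.10 over 12 rats (SE 0.35, 95% interval -0.86 to 0.66) and 0.03 without rat 6 (SE 0.31), with an adjusted p of 1.0 in edgeR for both. Within the sets, the differences in mean log2 CPM were -0.09 in the rat 1 set and 0.00 in the rat 4 set without rat 6.

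Among the granins and their convertase, Scg2 and Pcsk1 had the narrowest intervals over 12 rats. Scg2 encodes secretogranin II, the precursor of secretoneurin. It measured 391 to 509 CPM with a median of 423 in blast-boldine rats and 312 to 544 CPM with a median of 392 in the 5 deeper blast-controls, with 618 CPM in rat 6. Its log2 fold change was 0.00 (SE 0.17, 95% interval -0.36 to 0.36) in edgeR, and 0.09 without rat 6. Pcsk1, which encodes the convertase PC1/3, measured 42.4 to 64.9 CPM with a median of 56.8 against 46.2 to 78.2 CPM with a median of 56.4. Its log2 fold change was -0.06 (SE 0.15, 95% interval -0.39 to 0.27) in edgeR, and -0.07 without rat 6. For both genes the groups overlapped almost fully. Over 12 rats the exact permutation p of Tac1, Cartpt, Nts, Scg2, Pcsk1 and Chgb lay between 0.340 and 0.972, and without rat 6 between 0.491 and 0.909.

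Chgb, which encodes chromogranin B (chromosome 3, 120043824 to 120057168, plus strand), was the gene whose log2 fold change in edgeR moved most when rat 6 was left out. Blast-boldine rats measured 475 to 1565 CPM with a median of 1069, and the 5 deeper blast-controls 425 to 1726 CPM with a median of 653. Rat 6 measured 4641 CPM (exact Poisson 95% interval 4125 to 5204 CPM), above every other rat beyond counting error. The log2 fold change was -0.52 with rat 6 (SE 0.57, 95% interval -1.76 to 0.71) and 0.19 without it (SE 0.46, 95% interval -0.83 to 1.20), with an adjusted p of 1.0 in edgeR for both. With the set as a covariate and without rat 6 it was 0.03 (SE 0.13, 95% interval -0.24 to 0.31), as the values within each set lay close together.

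Chgb was also the gene of the group that the library sets separated most. Its level was 1251 to 1726 CPM in the 5 deeper rats of the rat 4 set and 425 to 653 CPM in the rat 1 set, a 2.86-fold ratio of geometric means, or 1.52 in mean log2 CPM. Nts was 1.82-fold higher in the rat 4 set without rat 6, and its sets did not overlap either. The sets did not overlap for Tac1, which was lower in the rat 4 set by a difference of -0.74 in mean log2 CPM, although the nearest rats of the sets were at 2.92 and 2.94 CPM. For the other genes the sets overlapped, with differences of 0.55 for Penk, 0.34 for Vgf and 0.30 for Scg2, and of -0.28 for Pcsk1, -0.35 for Cartpt, -0.65 for Pdyn and -0.70 for Adcyap1.

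Separation of the sets was common over all genes, as 49.1% of 12325 genes had sets that did not overlap, against 3 of the 10 genes here. The median absolute difference over all genes was 0.47, and 4.38% of genes had a larger one than Chgb. Of 12 marker lists, 2 had summed levels that did not overlap between the sets, and 10 overlapped. The 4 microglial markers summed to 240 to 260 CPM in the rat 1 set and 107 to 170 CPM in the rat 4 set, and the 4 endothelial markers to 87.6 to 130 CPM and 197 to 265 CPM (rat 6 left out). Their part in the levels of Chgb, Nts and Tac1 was not tested. Treatment and set are balanced, with 3 rats of each treatment in each set.

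From rat to rat, the genes of the group moved together only in part. With set means removed, 30 of the 45 pairs had a Pearson r above 0 over the 11 rats, with a median of 0.09. The highest values were those of Penk with Cartpt (0.82), Scg2 with Pcsk1 (0.81) and Penk with Scg2 (0.78), and these values depended on the centring. Without it they were 0.28, 0.03 and 0.88, and Nts with Chgb, at -0.05 with set means removed, was at 0.83. With set means removed, Adcyap1 was closest to Vgf (0.60, and -0.07 without centring) and Tac1 (0.51, and 0.75), and the lowest value was that of Pdyn with Nts (-0.43). These correlations describe 11 libraries, which also share depth and tissue makeup within a rat.

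**Figure D4:**
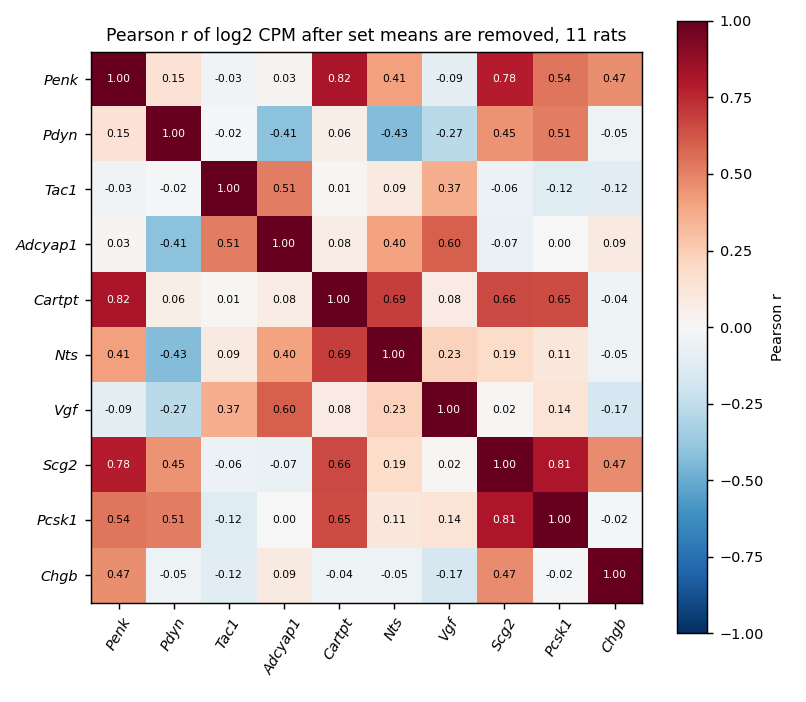
Pearson r of log2 CPM between each pair of genes over 11 rats, after the mean of each library set, but not of each treatment, is removed. Red is positive and blue negative. Penk, Cartpt, Scg2 and Pcsk1 form the block with the highest values (0.54 to 0.82), and Adcyap1 stands outside it with values of 0.03, 0.08, -0.07 and 0.00 to these 4.

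Over all genes tested, the gene with the pattern most like that of Adcyap1 was Rxfp1, the receptor of relaxin, with r = 0.93 over the same 11 rats, followed by Tmsb15b2 (0.89) and Sdc1 (0.88). For Nts they were the muscarinic receptor gene Chrm2 (0.90), Nabp1 (0.89) and Crem (0.87), and for Vgf they were Npl (0.94), Tsc22d2 (0.93) and Slc9b2 (0.93). For the other genes the closest were Tfam for Penk (0.94), Tmem14c for Pdyn (0.91), RGD1359508 for Tac1 (0.93), MGC95208 for Cartpt (0.92), Napepld for Scg2 (0.94), Prss35 for Pcsk1 (0.87) and Arhgap30 for Chgb (0.93). Each is the highest of the correlations with the 12325 genes tested, given as a description only.

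The further genes of the pathway gave no adjusted call either. Among 32 other neuropeptide precursors, 20 passed the filter, of which 4 were higher and 16 lower in blast-boldine rats, with a median log2 fold change of -0.18, while 51.3% of all genes tested were higher. Without rat 6 they were 4 higher and 18 lower of 22, with a median of -0.17. The precursor with the smallest p among those higher was Pmch, of melanin-concentrating hormone, with 0.520 to 4.68 CPM in blast-boldine rats and 0.592 to 0.995 CPM in the 5 deeper blast-controls. It had a log2 fold change of 1.3 (SE 0.50, unadjusted p = 0.0209, adjusted p = 1.0 in edgeR), with the next highest blast-boldine rat at 2.53 CPM. Among those lower it was Crh, with -0.72 (SE 0.36, unadjusted p = 0.0635 in edgeR), and -0.85 (SE 0.27, unadjusted p = 0.00787, adjusted p = 0.898) with the set as a covariate and without rat 6.

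The 6 other granins and granin-like genes had 2 higher and 4 lower (median -0.09), and 5 higher and 1 lower without rat 6 (median 0.06). The gene with the smallest p among those lower was Pcsk1n, which encodes proSAAS, an inhibitor of PC1/3, at -0.30 (SE 0.28 in edgeR), and among those higher Scg3 at 0.10 (SE 0.12). Of the 12 peptide processing enzymes, 4 were higher and 8 lower (median -0.05), from Qpct at -0.37 (SE 0.38) to Cpd, a carboxypeptidase, at 0.21 (SE 0.14). With rat 6 left out, 5 were higher and 7 lower (median -0.03). Genes of vesicle formation and release, 12 measured of 14 listed, had 5 higher and 7 lower (median -0.03), with Rab2a at 0.21 (SE 0.23) and Ptprn2 at -0.17 (SE 0.13). These vesicle genes had 3 higher and 9 lower without rat 6 (median -0.06). No gene of these 3 lists had an unadjusted p under 0.05 over 12 rats.

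The 12 receptors of the peptides had 4 higher and 8 lower, with a median log2 fold change of -0.10, and none with an unadjusted p under 0.05. Leaving out rat 6 gave 2 higher and 10 lower (median -0.14), again with none under 0.05 in edgeR. Ntsr1, a neurotensin receptor, was at -0.66 (SE 0.42, unadjusted p = 0.135 in edgeR), with 1.5 ± 0.811 CPM under boldine (SD, n = 6) and 2.33 ± 1.3 CPM (SD, n = 5) in the deeper blast-controls. Tacr1, the receptor of substance P, was at 0.24 (SE 0.19). Adcyap1r1, the PACAP receptor, was at -0.08 (SE 0.21), and was named after its value was seen, as the receptor of the peptide of Adcyap1.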

How the data were processed

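TRIzol-isolated total RNA was depleted of rRNA and made into stranded libraries. The authors removed PCR duplicates with HTStream, aligned reads to mRatBN7.2 with STAR 2.7.11b, allowing up to 20 alignments per read, and counted them by strand on RefSeq genes with featureCounts (Subread 2.0.1). The stated command sets no option to count reads with several alignments, which featureCounts leaves out by default. The deposited values are these raw counts, with 0 columns left unmapped. No exon of the 10 genes overlapped another gene's.

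Counts were tested with edgeR 4.0.16 (quasi-likelihood, TMM, filterByExpr with a minimum count of 10, treatment only, 12 rats, two-sided, Benjamini-Hochberg adjustment over 12325 genes at 0.05), in place of the study's DESeq2, which was an alternative (1.42.0), as was limma-voom (limma 3.58.1). CPM are TMM-normalized, with a prior count of 2 on the log2 scale. Single genes were compared by exact permutation over all assignments, with or without rat 6 (smallest p 0.00216), or within sets (smallest p 0.005). Sequences were read from RefSeq tables of GRCr8, and positions from RefSeq annotation of mRatBN7.2. The scripts were tested on simulated data.

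The members, lists and tests were chosen with earlier results of these data known. The genes named are the 10 members and up to 3 genes most like each of them. In each pathway list, the gene with the smallest p in each direction over 12 rats is also named. The same holds for the marker lists of hippocampal neurons, thalamus and habenula, and cortex, with exceptions named as such. No gene of the other marker lists is named. Alternatives were other size factors (RLE, upper quartile), other filters on low counts, robust empirical Bayes, a prior count of 0.5, leaving out each rat, and the set as a covariate. Groups came from the labels, and each library is from 1 animal.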

Additional observations from a re-analysis of the deposited data

Results flagged for a closer look

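In 3 of 20 groups of 6 rats, the lowest log2 CPM stood apart from that of the nearest other rat. The gap was more than Dixon's critical value of 0.625 of the group's range in log2 CPM. All 3 were in blast-control rat 6, the library of 74008 counts, for genes with 0 counts there. A count of 0 in rat 6 is placed at -3.07 log2 CPM by the prior count of 2, so the size of these gaps depends on that setting. The gap was 0.80 of the range for Tac1 (next rat 1.84 CPM), 0.822 for Adcyap1 (next rat 4.84 CPM) and 0.729 for Cartpt (next rat 1.68 CPM). Since 3 counts in rat 6 are 47.5 CPM, none of these values was detectable at that depth. Chance alone gives such a gap in about 1 in 20 groups.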

How the results depend on the processing

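No gene had an adjusted p under 0.05 in edgeR, DESeq2 or limma-voom under any of the 24 alternatives, and the smallest adjusted p was 0.0677 (DESeq2, set as covariate, rat 6 left out). At an unadjusted p under 0.05, 132 genes passed in edgeR over 12 rats (64 lower), 254 without the filter (106 lower), 85 in DESeq2 (54 lower), 115 in limma-voom (81 lower), 474 with the set as a covariate (285 lower), and without rat 6 175 (106 lower), 279 in DESeq2, 670 with the set, 736 in DESeq2 with the set and 675 in limma-voom with the set. Leaving out 1 rat gave 85 to 214. Of the 10 genes, 1 passed over 12 rats, 0 in DESeq2, 2 with the set with or without rat 6, 2 in DESeq2 with the set without rat 6, 1 in limma-voom with the set without rat 6, and 0 to 2 when 1 rat was left out, the 2 without blast-control rat 5. The median over the 10 genes lay between -0.12 and 0.06 when 1 rat was left out.

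Adcyap1 and Vgf were lower and Penk and Pdyn higher in blast-boldine rats under all 24 alternatives, with log2 fold changes of -0.78 to -0.51, -0.37 to -0.17, 0.11 to 0.53 and 0.09 to 0.34. The others turned sign around 0. Scg2 was -0.00711 with RLE and -0.0277 with upper quartile factors, and -0.0871 to 0.11 when 1 rat was left out. Nts was 0.000712 in limma-voom and 0.0317 in DESeq2 without rat 6, and -0.25 to 0.16 when 1 rat was left out. Chgb was 0.0249 in limma-voom, and without rat 6 0.183 in DESeq2, 0.0345 with the set, 0.0364 in DESeq2 with the set and 0.0498 in limma-voom with the set, and -0.72 to 0.19 when 1 rat was left out. Tac1 was 0.0677 with the set, 0.0582 with the set without rat 6 (0.0631 in DESeq2, 0.0446 in limma-voom), and -0.12 to 0.12 when 1 rat was left out. Cartpt was -0.0504 to 0.237 and Pcsk1 -0.124 to 0.0626 when 1 rat was left out. Differences in mean log2 CPM, in which rat 6 has full weight whatever its depth, had the other sign without rat 6 for Tac1 (-0.0440), Adcyap1 (-0.66), Nts (0.0372) and Chgb (0.20), and within sets without rat 6 for Adcyap1 (-0.59, exact permutation p = 0.025) and Chgb (0.0528). For the changes other than those of rat 6 the cause was not tested. DESeq2 and limma-voom with the set without rat 6, and permutation within sets without rat 6, were chosen after seeing the data. No paired analysis was possible because the groups share no rat number.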
